A study of Mus musculus with 12 samples.

Results

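The comparison described here set 3 murine breast tumors treated with ADU-S100 alone against 3 tumors treated with vehicle, which together make up 6 of the 12 tumors of the series. Tumors were assigned from their titles and not from measured values, with 1506, 1512 and 1513 in the ADU-S100 group and 1269, 1529 and 1536 in the vehicle group. All of them derive from a model of triple-negative breast cancer that carries Brca1 f/f and Trp53 f/f alleles with a K14-Cre transgene, in which the keratin 14 promoter drives the Cre recombinase that removes both genes in epithelial cells, and each was grown in the mammary fat pad of a syngeneic FVB/129P2 female. For flow cytometry studies the methods give tumor volumes of 150 to 300 mm3 at the start of treatment, and for efficacy studies a narrower range. The supplement describes the treatment of the counted tumors as that of the efficacy experiment, so that their starting range is not certain. Vehicle mice received DMSO diluted in saline intraperitoneally each day and 1 intratumoral injection of saline, while ADU-S100 mice received intraperitoneal DMSO, for which the methods name PBS as the diluent in this arm, and a single dose of 50 μg ADU-S100, injected into the tumor in 40 μl on the first day. Tumors were collected at 3 days, and RNA was extracted from a frozen piece of each whole tumor, so that cancer cells, host leukocytes and host stroma were measured together. The ages of the mice, and whether each tumor piece came from the same donor tumor, are not given in the sources used here. The labels number every tumor without saying that each came from a mouse of its own, and the p-values below therefore measure only the spread between these tumors. The other 6 tumors, from mice given olaparib or olaparib with ADU-S100, entered the filter on low values, the estimate of that spread and the closing comparison of effects.

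ADU-S100 is a synthetic cyclic dinucleotide that binds STING, the endoplasmic reticulum protein that normally responds to the second messenger made by cGAS when DNA appears in the cytosol. Activated STING recruits the kinase TBK1, which phosphorylates the transcription factor IRF3 and leads to type I interferon production, and it also activates NF-kB. Interferon then acts through JAK and STAT proteins on a broad set of antiviral genes and on chemokines that attract T cells and natural killer (NK) cells. Agonists of this kind are injected into tumors to bring such cells in and to mature dendritic cells.

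Messenger RNA was counted on the nCounter platform from 100 ng of total RNA, with probes that each carry a color code and are tallied one by one without amplification. The values are normalized counts on a linear scale, namely the tallies after background correction and scaling against control probes and housekeeping genes. Because the values of a tumor are whole multiples of one number, the tallies before scaling could be recovered, and they are called recovered counts below. The sum of recovered counts ranged from 632152 to 1519471 in vehicle tumors and from 372390 to 683982 in ADU-S100 tumors, and 1 count was scaled to a value of 0.682 to 1.49 in vehicle tumors and of 1.43 to 2.85 in ADU-S100 tumors. ADU-S100 tumor 1506 stood apart, with the fewest counts, the largest value per count and the highest median value of the 6 tumors, and it held the highest value of 377 of the 689 genes tested. Vehicle tumor 1529 had the highest median value of its group. The epithelial markers Epcam, Cdh1 and Muc1, the 3 of 7 on the panel, were well counted in all 6 tumors and their summed values overlapped, between 10802 and 21498 in vehicle and between 11861 and 19063 in ADU-S100 tumors. Trp53 is on the panel too, with 598 to 871 recovered counts per tumor, a positive difference and overlapping groups, but where its probe lies relative to the deleted exons is not given, so that this is no check of the model.

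Of the 689 genes with a normalized count of at least 20 in at least 3 of the 12 tumors, 0 (0%) reached an adjusted p below 0.05 (limma, Benjamini-Hochberg). The smallest adjusted p was 0.809, so that every gene named below lies at or above that value, and the differences are given as log2 differences of log2(normalized count + 1), ADU-S100 minus vehicle, with the standard error (SE) of the fit. The edgeR quasi-likelihood test on recovered counts also called 0 genes. At an unadjusted limma p below 0.05, 32 genes were higher (4.64%) and 1 gene was lower (0.145%) in ADU-S100 tumors, and in edgeR 41 genes lay below 0.05 under the authors' factors and 35 under TMM. The sign of the difference was positive for 539 genes and negative for 150. For 96 genes (13.9%) all 3 ADU-S100 values lay above all 3 vehicle values, and for 7 genes (1.02%) all lay below, which is called complete separation here. For a single gene, complete separation of 3 tumors from 3 gives an exact permutation p of 0.1 (two-sided), the smallest that this design allows.

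The number of higher genes depends on the scale on which it is counted. The median log2 difference over the 689 genes was 0.44, and it was 0.16 without tumor 1506 and 0.69 without 1529. Giving all tumors 1 common median (called the same-median scale) or 1 common distribution sets this median near 0 by construction, here to 0.04 and to -0.05 with quantile normalization, so that those scales show which genes differ relative to the rest and are no evidence on the surplus itself. On the same-median scale 63 genes separated as higher and 23 as lower, and with quantile normalization 39 separated in each direction. Genes at an unadjusted p below 0.05 then numbered 30 higher and 6 lower, 24 higher and 13 lower with quantile normalization, and 25 higher and 10 lower in edgeR with TMM. The number of higher genes below 0.05 also depended on single tumors: it was 12 without 1269, 18 without 1536, 13 without 1506, 21 without 1512 and 60 without 1513. Complete separations with 1 tumor left out, which have fewer values to separate, reached 252 higher genes without 1529 and 200 without 1513, and 19 to 22 lower genes without 1269, 1536, 1506 or 1513. A gene or list is therefore read below against the 0.44 of all genes, or the 0.16 where tumor 1506 is left out, and its difference on the same-median scale is given where the scales part. Nearer references are the medians given next, 0.90 for genes on few counts and 0.27 for well-counted genes.

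Many of the separated genes rest on few counts. Of the genes tested, 194 had fewer than 20 recovered counts in at least 1 of the 6 tumors, and 94 had fewer than 10. The 194 genes had a median log2 difference of 0.90, and 47 of them (24.2%) separated as higher and 1 as lower. The 30 genes with the lowest mean values had overlapping median counts, 7, 4.5 and 7 in vehicle and 6, 5 and 6.5 in ADU-S100 tumors. As normalized counts these medians were 4.77, 6.69 and 4.85 against 17.1, 9.82 and 9.27, which separate by scaling alone. Without the filter on low values, 119 genes separated as higher. Among the 495 genes with 20 counts or more in every tumor, 49 (9.90%) separated as higher and 6 (1.21%) as lower, with a median log2 difference of 0.27. Of the 33 genes at an unadjusted p below 0.05, 19 had fewer than 20 counts in a tumor and 24 had their highest value in tumor 1506. The plot of difference against counts shows most of the large differences at the left, where counts are fewest, and the largest of all, that of Il2rb, to the right of the line.

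**Figure D1:**
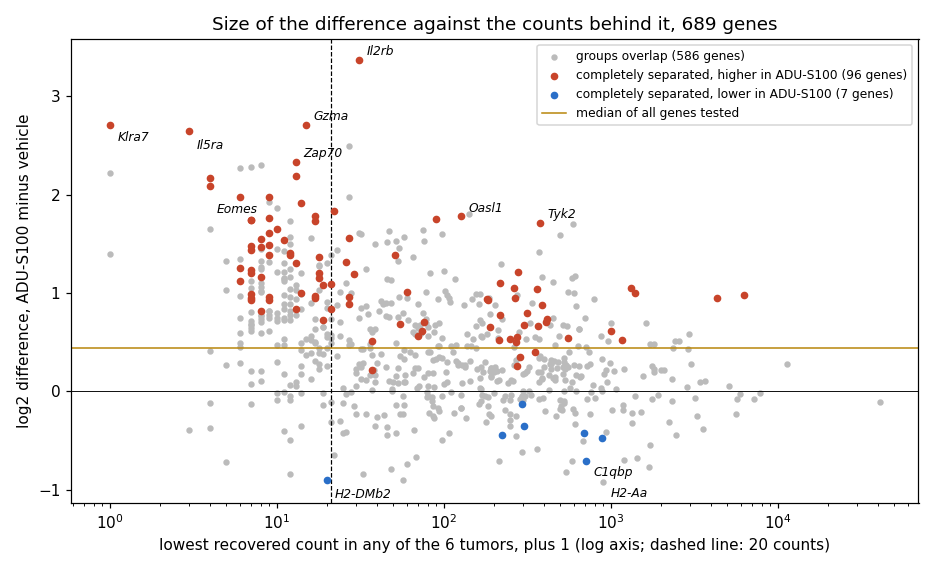
Log2 difference (ADU-S100 minus vehicle, vertical axis) of each of the 689 genes tested against its lowest recovered count in any of the 6 tumors plus 1 (horizontal log axis), with completely separated genes in red (96 higher) and blue (7 lower) and the rest in grey. Red points crowd to the left of the dashed line at 20 counts, and the median of all genes (horizontal line) lies at 0.44.

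The recovered counts give a second view of the 96 genes. Before scaling, 86 of them overlapped between the groups, and 56 of the 96 had a higher mean count in vehicle than in ADU-S100 tumors, whose mean total was lower. The other 10 were higher in all 3 ADU-S100 tumors also by the counts themselves, although the mean total of that group was lower, and all 10 separated with the same median per tumor as well. They are Il2rb, Hcst, Tyk2, Cd28, Zap70, Gzma, Ncr1, Klra7, C9 and Il11, a set singled out after its values were seen. They encode a cytokine receptor chain (Il2rb), the adaptor of an activating NK receptor (Hcst), a JAK family kinase (Tyk2), a costimulatory receptor (Cd28), a T cell receptor kinase (Zap70), a granule protease (Gzma), NK receptors (Ncr1 and Klra7), a complement component (C9) and a cytokine (Il11). The filter on low values includes the ADU-S100 tumors, so that a gene on few counts can pass by being high there. Klra7, C9 and Il11 would not have passed on the other tumors alone, and their separation is no separate evidence of a difference. Of the 7 lower genes, 6 were lower in all 3 ADU-S100 tumors by counts as well, beside 177 of all 689 genes that were lower by counts and 10 that were higher.

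**Figure D2:**
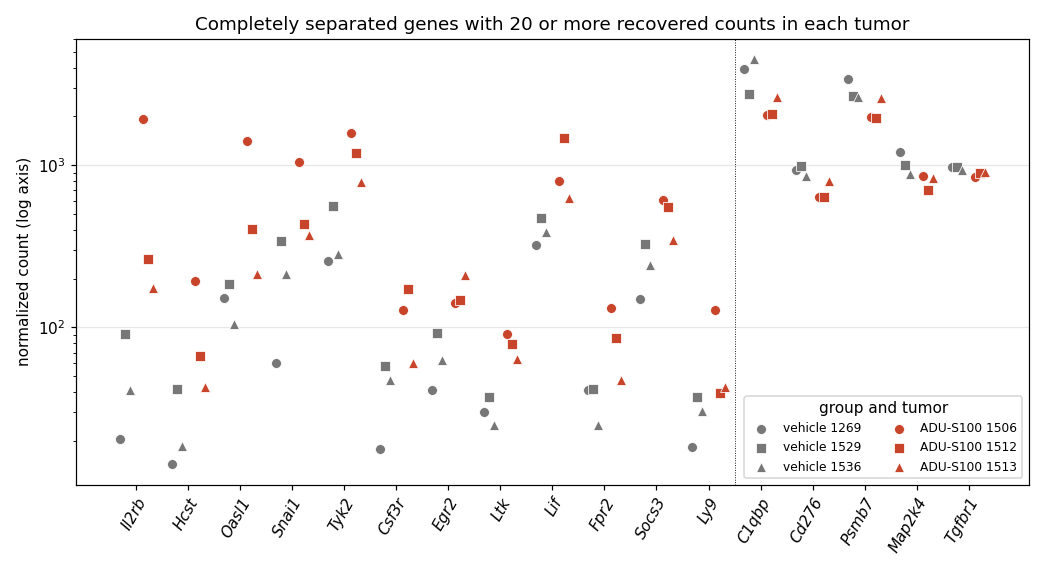
Normalized count (log axis) in each tumor for the 12 higher genes with the largest log2 difference and 5 lower genes, all completely separated with 20 or more recovered counts in every tumor, vehicle in grey and ADU-S100 in red, 1 symbol per tumor. For most higher genes the circle of tumor 1506 lies at the top, while the 5 lower genes, right of the dotted line, differ by less.

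Among well-counted genes the largest difference was that of Il2rb, the beta chain shared by the receptors for interleukin-2 and interleukin-15 on T cells and NK cells. Its normalized count was 20.5, 90.7 and 40.9 in the vehicle tumors 1269, 1529 and 1536, and 1934, 265 and 175 in the ADU-S100 tumors 1506, 1512 and 1513. The log2 difference was 3.37 (SE 1.17), and it was 2.97 on the same-median scale and 2.32 without tumor 1506. All 3 ADU-S100 tumors thus lay above the highest vehicle tumor, and 1506 lay far above 1512 and 1513. Since whole tumors were measured, a difference in the number of cells that carry a transcript and a difference in its level per cell cannot be told apart, here or for any gene below. Hcst, which encodes the adaptor DAP10 of the NKG2D receptor, had values of 14.3, 41.6 and 18.7 in vehicle and of 194, 66.8 and 42.8 in ADU-S100 tumors, a log2 difference of 1.83 (SE 0.86), and 1.22 without 1506. The gap between the groups lay between vehicle tumor 1529 and ADU-S100 tumor 1513, on 28 and 30 counts.

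Most genes of cytotoxic cells rest on few counts. Of 24 cytotoxic effector and NK receptor genes tested, 23 had a positive difference, beside 539 of all 689 genes, and 13 separated as higher, with a median log2 difference of 1.22 beside 0.44 for all genes. On the same-median scale the median was 0.83 and 11 genes separated as higher, 1 as lower. All 13 rest on fewer than 20 counts in a tumor, as do 21 of the 24 genes, and 24.2% of all genes with so few counts separated as higher. In 21 of the 24 genes tumor 1506 held the highest value, and without it the median was 0.77, beside 0.16 for all genes, with 23 of 24 genes positive. Over all 194 genes with so few counts the median was 0.90, and 0.54 without 1506. Eomes, a transcription factor of NK cells and effector T cells, had the smallest p of all genes tested, 0.00285 unadjusted in limma. Its values were 7.50, 11.9 and 11.1 in vehicle and 57.0, 29.5 and 28.5 in ADU-S100 tumors, a log2 difference of 1.77 (SE 0.47), on 8 to 16 counts against 15 to 20. The values separate while the counts overlap.

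Gzma, which encodes the granule protease granzyme A, had values of 9.55, 28.2 and 15.2 in vehicle and of 385, 68.8 and 51.4 in ADU-S100 tumors, on 14, 19 and 22 counts against 135, 35 and 36. Its log2 difference was 2.71 (SE 0.97), and 1.82 without tumor 1506. Ncr1, the NK cell receptor NKp46, had 12.96, 17.8 and 10.4 against 225, 39.3 and 29.96, a log2 difference of 2.19 (SE 0.91), and 1.29 without 1506. In both genes the 3 ADU-S100 tumors lay above the vehicle tumors by values and by counts. Klra7, an NK receptor of the Ly49 family, was counted 0, 3 and 0 times in vehicle tumors and 10, 9 and 7 times in ADU-S100 tumors, too rarely for a fold difference, and probes for such closely related receptors may share signal. Gzmb (granzyme B) separated on 6 to 9 counts against 9 to 12, with a log2 difference of 1.48 (SE 0.83), and Prf1 (perforin) on 5 to 6 against 5 to 27, with 1.98 (SE 0.99) and 1.09 without 1506. For Prf1, counts of 5 in vehicle tumor 1529 and in ADU-S100 tumor 1512 became values of 7.43 and 9.82 by scaling alone. Klrc1, the inhibitory receptor chain NKG2A, had 12.3, 10.4 and 33.3 against 54.1, 60.9 and 37.1, a log2 difference of 1.55 (SE 0.64).

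**Figure D3:**
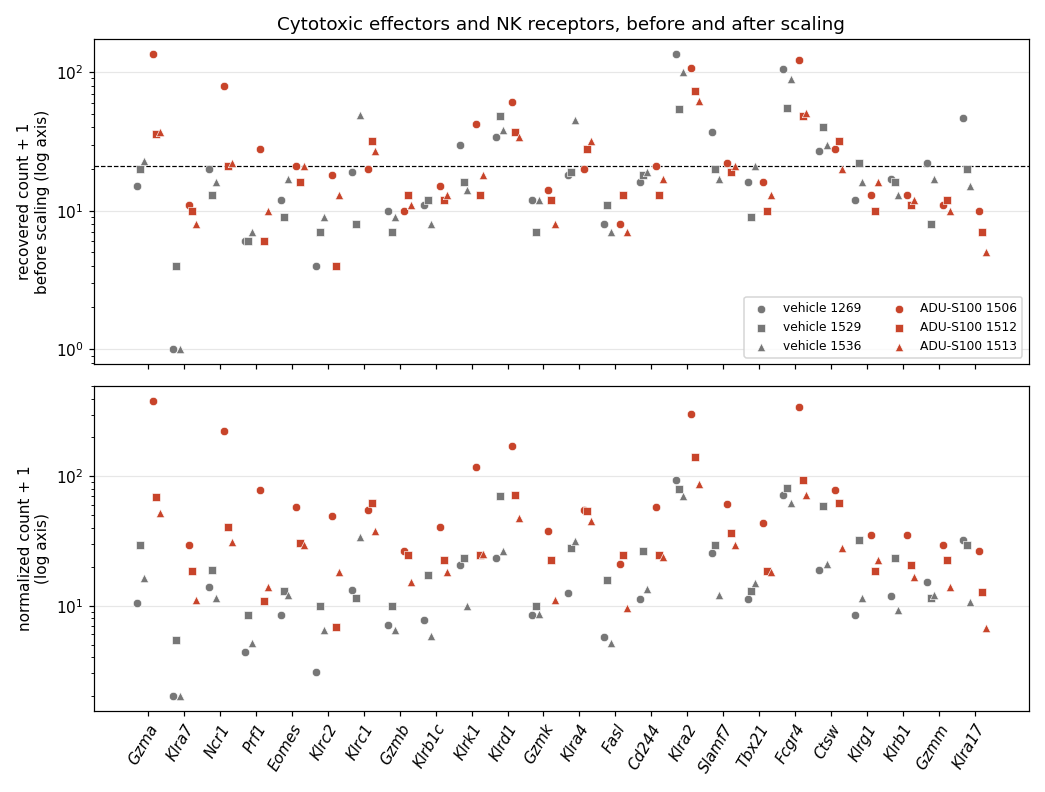
Recovered counts before scaling (upper panel) and normalized counts (lower panel), each plus 1 on a log axis, of the 24 cytotoxic effector and NK receptor genes tested, ordered by log2 difference, with 1 symbol per tumor, vehicle in grey and ADU-S100 in red. Most genes lie below the dashed line at 20 counts in some tumor, and the groups part more in the lower panel than in the upper one.

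T cell genes held both kinds of pattern. Of 28 genes of the T cell receptor complex and other T cell markers, 25 had a positive difference and 7 separated as higher, 5 of these on few counts, with a median log2 difference of 0.84 (0.43 on the same-median scale). Tumor 1506 held the highest value of 23 of the 28 genes, and without it the median was 0.50. Of the 28 genes 17 rest on few counts, for which the share that separated as higher over all genes is the 24.2% given above. Zap70, the kinase that signals from the T cell receptor, had 8.19, 17.8 and 11.1 in vehicle and 197, 45.2 and 28.5 in ADU-S100 tumors, on 12 to 16 counts against 20 to 69, a log2 difference of 2.34 (SE 1.03), and 1.53 without 1506. Cd28, the receptor for costimulation by CD80 and CD86, had 19.1, 26.8 and 11.1 against 88.3, 66.8 and 44.2, a log2 difference of 1.78 (SE 0.64). For both genes the ADU-S100 tumors lay above the vehicle tumors by value and by count. The defining markers differed less. Cd3e, a subunit of the T cell receptor complex, had 14.3, 19.3 and 6.23 against 28.5, 9.82 and 18.5, and the groups overlapped on 5 to 21 counts. Cd8a, the coreceptor of cytotoxic T cells, separated with values of 6.82 to 11.9 against 14.3 to 21.6, but its counts of 8 to 10 in vehicle lay within the 6 to 11 of ADU-S100 tumors. Cd4 had 25.6 to 49.1 in vehicle and 29.96 to 108 in ADU-S100 tumors, and Foxp3, the factor of regulatory T cells, 4.09 to 22.3 against 11.4 to 28.5, and both overlapped. With quantile normalization the differences of Cd3e, Cd8a, Cd4 and Foxp3 were negative. Summed over Cd3d, Cd3e, Cd3g, Cd8a and Cd4, the T cell markers came to 79.0 to 161 in vehicle and 131 to 316 in ADU-S100 tumors, and the 2 NK markers Ncr1 and Klrd1 to 35.5 to 87.7 and 77.0 to 396. In both sums the ADU-S100 upper end was that of tumor 1506. What these cell types contribute to the gene differences was not tested.

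Of 16 genes of STING and nucleic acid sensing, 12 had a positive difference and 1 separated as higher (6.25%, beside 13.9% of all genes), with a median log2 difference of 0.28 that was -0.13 on the same-median scale. Without tumor 1506 the median was -0.066 with 7 of 16 genes positive, beside 0.16 for all genes. Tmem173, the gene of STING, had 498, 544 and 533 in vehicle and 667, 454 and 437 in ADU-S100 tumors, and its log2 difference was -0.04 (SE 0.36). Tbk1, the kinase downstream of STING, had 439, 510 and 348 against 704, 615 and 549 and separated as higher, with a log2 difference of 0.53 (SE 0.47) that shrank to 0.12 on the same-median scale, where the groups overlapped. Ikbke, a kinase related to TBK1, had 438, 560 and 256 against 1598, 1409 and 534, a log2 difference of 1.42 (SE 0.63). Its lowest ADU-S100 value, in tumor 1513, lay below the highest vehicle value.

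The interferon genes themselves were at the edge of detection. Of 8 interferon ligands and receptors tested, 4 separated as higher, namely Ifnb1, Ifna1, Ifna2 and Ifna4, and all 4 rest on few counts, beside 13.9% of all genes and 24.2% of those with few counts that separated as higher. Ifnb1, interferon beta, had normalized counts of 13.6, 10.4 and 9.70 in vehicle and of 28.5, 31.4 and 19.98 in ADU-S100 tumors, a log2 difference of 1.16 (SE 0.54). These values stand for 20, 7 and 14 counts against 10, 16 and 14, which overlap, and on the same-median scale the values overlapped too. Ifna4 had 14, 6 and 26 counts against 9, 17 and 18, with a log2 difference of 1.21 (SE 0.62), and Ifna1 8, 8 and 14 against 15, 13 and 9, with 1.39 (SE 0.74). Of the 4, Ifna1 alone separated on the same-median scale. Ifng, interferon gamma, was among the 61 genes that did not pass the filter on low values. Downstream, Tyk2, a kinase of the receptors for type I interferon and interleukin-12, had 256, 563 and 285 in vehicle and 1575, 1183 and 788 in ADU-S100 tumors on 376 to 412 against 552 to 602 counts, a log2 difference of 1.71 (SE 0.77). It was the best-counted gene to separate in values, in counts and on the same-median scale. Socs3, a feedback inhibitor of JAK signaling, separated with 149, 326 and 244 against 612, 550 and 348, a log2 difference of 1.10 (SE 0.65), but overlapped on the same-median scale. In the list of 18 JAK, STAT, IRF and SOCS genes, 16 were positive and Tyk2 and Socs3 separated as higher, with a median of 0.40 beside 0.44 for all genes. Over its 16 genes with 20 counts or more in each tumor the median was 0.30, beside 0.27 for all such genes. Without tumor 1506 the list median was 0.09 with 10 of 18 positive, beside 0.16 for all genes.

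Of 27 interferon-stimulated effectors tested, all with at least 20 counts in each tumor, 23 had a positive difference and 2 separated as higher, Oasl1 and Isg20 (7.41%, beside 9.90% of all genes with so many counts). The median log2 difference was 0.47 (0.06 on the same-median scale), beside 0.27 (-0.14) for all genes with 20 counts or more in each tumor. Tumor 1506 held the highest value of 20 of the 27 genes and vehicle tumor 1536 the lowest value of 20, and vehicle tumor 1269 held the highest value of 4. Without 1506 the median was -0.14, beside 0.05 for all genes with 20 counts or more in each tumor. Positive genes then numbered 11 of the 27, beside 283 of those 495. The median of the 27 was -0.051 without vehicle tumor 1536 and 0.80 without 1269. Oasl1, a relative of the oligoadenylate synthetases, had 152, 186 and 105 in vehicle and 1407, 405 and 214 in ADU-S100 tumors, a log2 difference of 1.78 (SE 0.76) that was 1.03 without 1506, and it separated on the same-median scale as well. Isg20, an interferon-induced exonuclease, had 402, 391 and 312 against 980, 823 and 545, a log2 difference of 1.05 (SE 0.38), and overlapped on the same-median scale. Several classical members, named here after their values were seen, overlapped widely. Isg15, a ubiquitin-like modifier, had 1910, 852 and 472 against 2766, 731 and 768, Ifit1 had 1964, 500 and 143 against 946, 208 and 300, and Ifit3 had 5592, 1739 and 622 against 11160, 1026 and 976. In these 3 genes the highest vehicle tumor was 1269, and tumors 1512 and 1513 lay below it. Their log2 differences were 0.34, -0.42 and 0.29, and that of Rsad2, the antiviral enzyme viperin, was 0.49. Irf7, the transcription factor that amplifies interferon production, had 2201, 763 and 201 against 4022, 438 and 882, with a log2 difference of 0.73 that was -0.16 without tumor 1506, -0.16 without 1536 and 1.56 without 1269.

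**Figure D4:**
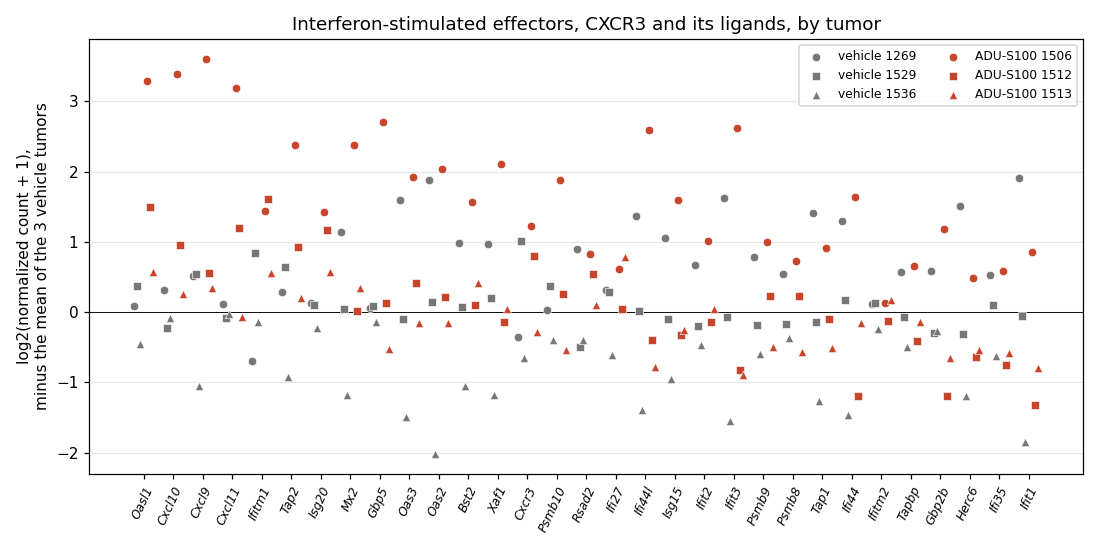
Log2(normalized count + 1) minus the mean of the 3 vehicle tumors (vertical axis) for the 27 interferon-stimulated effectors, CXCR3 and its ligands, ordered by log2 difference, with 1 symbol per tumor, vehicle in grey and ADU-S100 in red. Tumor 1506 (red circles) lies above the other ADU-S100 tumors for most genes, and vehicle tumor 1269 (grey circles) lies high among the genes to the right.

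Promoter sequences show which letters these genes share. The core of the interferon-stimulated response element, searched as GAAANNGAA on both strands of the window from 250 bases before to 50 bases after each transcription start (RefSeq, build GRCm38.p6), was found in 11 of the 23 interferon-stimulated effectors with a window (47.8%), beside 15.9% of the 508 genes tested with a window and 9.76% of 27025 genes. An NF-kB type motif, searched as GGANTTTCC, was found in 6 of 18 NF-kB and inflammatory cytokine genes with a window (33.3%), 7.09% of the genes tested and 1.45% of all genes. The windows printed 5′ to 3′ along the gene, with matches of either motif in capitals, are those of Isg15 and Cxcl10 as interferon targets whose groups overlapped, Oasl1 as an interferon target whose groups separated, and Nfkbia as a separated target of NF-kB. They lie at chr4:156200769-156201068 (minus strand), chr5:92348840-92349139 (minus), chr5:114922990-114923289 (plus) and chr12:55492598-55492897 (minus).
Isg15: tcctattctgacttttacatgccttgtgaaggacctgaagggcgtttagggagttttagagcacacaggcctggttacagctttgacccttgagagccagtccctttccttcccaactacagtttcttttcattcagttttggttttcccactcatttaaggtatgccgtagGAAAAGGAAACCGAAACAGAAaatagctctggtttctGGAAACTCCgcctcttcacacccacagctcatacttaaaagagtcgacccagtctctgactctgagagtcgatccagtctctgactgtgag
Cxcl10: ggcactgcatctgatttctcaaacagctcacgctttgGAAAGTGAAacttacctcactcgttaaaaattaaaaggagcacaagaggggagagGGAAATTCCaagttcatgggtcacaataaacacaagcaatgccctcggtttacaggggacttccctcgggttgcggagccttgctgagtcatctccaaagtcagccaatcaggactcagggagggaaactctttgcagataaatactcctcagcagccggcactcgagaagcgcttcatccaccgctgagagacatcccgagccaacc
Oasl1: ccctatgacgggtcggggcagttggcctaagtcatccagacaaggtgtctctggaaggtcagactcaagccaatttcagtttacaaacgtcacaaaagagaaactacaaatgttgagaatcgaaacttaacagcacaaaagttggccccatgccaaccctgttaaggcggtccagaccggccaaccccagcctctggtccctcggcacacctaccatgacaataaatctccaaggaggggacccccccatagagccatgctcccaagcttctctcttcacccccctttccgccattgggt
Nfkbia: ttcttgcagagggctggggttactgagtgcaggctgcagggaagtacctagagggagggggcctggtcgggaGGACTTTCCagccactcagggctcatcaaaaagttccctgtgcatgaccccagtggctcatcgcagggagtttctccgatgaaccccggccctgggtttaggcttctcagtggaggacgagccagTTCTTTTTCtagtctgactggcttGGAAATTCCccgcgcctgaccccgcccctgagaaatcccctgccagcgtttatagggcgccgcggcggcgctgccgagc
Isg15 holds 3 overlapping matches of the interferon motif, from 78 bases before its start, and 1 of the NF-kB type. Cxcl10 holds 1 of each, the first 213 bases before its start, and Nfkbia holds 2 of the NF-kB type and 1 of the interferon motif, the first 178 bases before. Neither motif was spelled out in the window of Oasl1, which says only that these letters are not in it. The 81 genes tested with the interferon motif had a median log2 difference of 0.49, beside 0.44 for all genes tested. On the same-median scale these medians were 0.09 and 0.04. Of the 81 genes 66 were positive, beside 539 of all 689. As higher, 17 of the 81 separated, beside 79 of the 508 genes with a window and 13.9% of all genes tested. Among the completely separated higher genes with a window, 17 of 79 held the interferon motif (21.5%) and 4 of 79 held the NF-kB type motif (5.06%). Of the 17, 0 were interferon-stimulated effectors.

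The chemokines that attract T cells and NK cells through CXCR3 had the highest list median, and it rested largely on tumor 1506. All 4 genes of this list, the receptor included, had a positive difference, with a median of 1.47 that was 0.50 without 1506, and 0 of them separated. Cxcl10 had 162, 112 and 123 in vehicle and 1376, 253 and 156 in ADU-S100 tumors, a log2 difference of 1.53 (SE 0.74) that was 0.60 without tumor 1506. Cxcl9 had 80.5, 81.8 and 26.3 against 692, 82.5 and 71.3, with 1.502 (SE 0.84) and 0.45 without 1506. Cxcl11 had 37.5, 32.7 and 33.9 against 325, 80.6 and 32.8, with 1.44 (SE 0.72) and 0.56. In each of the 3 ligands 1506 was highest and 1513 lay within the range of the vehicle tumors. Ccl5, which attracts T cells and monocytes, had 207, 75.8 and 51.3 against 524, 257 and 147, a log2 difference of 1.53 (SE 0.70), with vehicle tumor 1269 above ADU-S100 tumor 1513. Among 21 chemokines of the CC, XC and CX3C classes, Ccl5 included, 19 had a positive difference and 3 separated as higher (14.3%, beside 13.9% of all genes, with 10 of the 21 on few counts), with a median of 0.73 that was 0.31 without 1506. Ccl3, which attracts monocytes and lymphocytes, separated with 58.7, 23.8 and 22.2 against 88.3, 226 and 61.4, a log2 difference of 1.73 (SE 0.65), on as few as 16 counts, and overlapped by counts and on the same-median scale. Ccl7, an attractant of monocytes, had 66.2, 401 and 232 against 1151, 477 and 320, with 1.60 (SE 0.65) and 0.87 without 1269, and overlapped, though it separated on the same-median scale. The 15 chemokine receptors had a median of 0.67, with 13 positive and 1 separated as higher, Ccr7, and the median was -0.013 without vehicle tumor 1269 and 0.16 without 1506.

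Of 17 neutrophil chemokine and granule genes, 15 had a positive difference, beside 539 of all 689 genes, and 5 separated as higher (29.4%, beside 13.9%), with a median log2 difference of 1.17. Few counts underlie 9 of the 17 genes and 2 of the 5 separated ones, beside 24.2% of all such genes that separated as higher. On the same-median scale the median was 0.76 and 1 gene separated as higher, and the median was 1.08 without tumor 1506, with 16 of 17 positive, and 0.72 without tumor 1512. Tumors 1506 and 1512 each held the highest value of 7 of these genes. Csf3r, the receptor for granulocyte colony-stimulating factor, had 17.7, 58.0 and 47.1 in vehicle and 128, 173 and 59.9 in ADU-S100 tumors, a log2 difference of 1.56 (SE 0.54). Fpr2, a receptor for formylated peptides, had 40.9, 41.6 and 24.9 against 131, 86.4 and 47.1, with 1.19 (SE 0.48). For both genes the gap between the groups was narrow, at tumor 1513 on one side and 1529 on the other, and on the same-median scale they overlapped. Camp, the antimicrobial peptide precursor of neutrophil granules, had 6.14, 11.9 and 16.6 against 39.9, 39.3 and 27.1, with 1.61 (SE 0.54), on as few as 8 counts. Cxcl3, a ligand of the neutrophil receptor CXCR2, had 6.14, 7.43 and 34.6 against 37.0, 185 and 32.8, with 2.27 (SE 1.20) and 1.48 without 1512, and overlapped. The marker sum of S100a8 and Csf3r was 1123, 968 and 2151 in vehicle and 1974, 7598 and 1839 in ADU-S100 tumors. Only tumor 1512 thus lay above the vehicle tumors, and Csf3r made up at most 173 of each sum.

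Of 23 NF-kB and inflammatory cytokine genes, 22 had a positive difference and 5 separated as higher, all 5 with 20 counts or more in each tumor (21.7% of the list, beside 13.9% of all genes, and 5 of its 18 well-counted genes, beside 49 of 495). The median log2 difference was 0.75, beside 0.44 for all genes. It was 0.35 on the same-median scale and 0.05 with quantile normalization, beside 0.04 and -0.05 for all genes. Lif, a cytokine of the interleukin-6 family, had 321, 470 and 389 in vehicle and 795, 1466 and 626 in ADU-S100 tumors, a log2 difference of 1.21 (SE 0.46), with 1512 the highest tumor. Il23a, a subunit of interleukin-23, had 51.8, 56.5 and 31.9 against 74.1, 92.3 and 89.9, with 0.89 (SE 0.40). Nfkbia, the inhibitor that NF-kB itself induces, had 302, 357 and 201 against 533, 401 and 397, with 0.65 (SE 0.48), and Nfkb2, a precursor of an NF-kB subunit, had 485, 785 and 461 against 1040, 847 and 803, with 0.67 (SE 0.46). Il1rn, the interleukin-1 receptor antagonist, had 326, 357 and 277 against 524, 562 and 756, with 0.93 (SE 0.50). All 3 ADU-S100 tumors were above the vehicle tumors for these genes, but on the same-median scale all 5 overlapped. Nlrp3, the sensor of an inflammasome, had 17.7, 116 and 67.9 against 498, 196 and 92.7, with 1.98 (SE 0.80) and 1.23 without 1269, and Nos2, the inducible nitric oxide synthase, 21.8, 59.5 and 20.8 against 128, 126 and 51.4, with 1.61 (SE 0.77). Both overlapped, with vehicle tumor 1529 above ADU-S100 tumor 1513, and separated on the same-median scale. The 22 genes of endothelial activation and leukocyte adhesion had a median of 0.23, with 15 positive and 1 separated as higher (Itgal).

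Antigen presentation by MHC class II stood against the general direction. Of 11 class II genes tested, 8 had a negative and 3 a positive difference, beside 150 negative of all 689. The median was -0.15, beside 0.44 for all genes and 0.27 for those with 20 counts or more in each tumor. On the same-median scale it was -0.56. There 5 of the 11 separated as lower and 1 as higher, beside 23 and 63 of all 689. Under the authors' scaling the class II median was 0.05 without vehicle tumor 1529 and 0.09 without ADU-S100 tumor 1513. H2-DMb2, the beta chain of the molecule that loads peptides onto class II, was the 1 lower gene at an unadjusted p below 0.05 (0.0396 in limma). It had 106, 126 and 97.0 in vehicle and 65.5, 37.3 and 79.9 in ADU-S100 tumors, on 85 to 155 against 19 to 56 counts, a log2 difference of -0.90 (SE 0.39) that was -0.58 without 1512, and it separated on the same-median scale and by counts as well. Its paralog H2-DMb1 has a similar sequence, and how the probe tells them apart is not given in the sources used here. H2-Aa, the alpha chain of the class II molecule I-A, had 4678, 6164 and 3474 against 4683, 1770 and 1789, with -0.92 (SE 0.46). Cd74, the invariant chain, had 6695, 9698 and 6254 against 8246, 3307 and 3006, with -0.77 (SE 0.56), and H2-Ab1, the beta chain, had 2830, 4447 and 2346 against 5096, 1837 and 1347, with -0.41 (SE 0.54). In these 3 genes tumors 1512 and 1513 lay below every vehicle tumor while 1506 lay within or above them, and all 3 separated as lower on the same-median scale. The 18 genes of MHC class I and nonclassical presentation had a median of 0.29 with 0 separated as higher and 1 as lower (Psmb7). That median was -0.15 without 1506, with 6 of the 18 genes positive in place of 13, and -0.12 on the same-median scale.

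The other 6 lower genes that separated were well counted and differed less, and all 6 overlapped on the same-median scale. C1qbp, a mitochondrial protein that binds complement C1q, had 3904, 2744 and 4505 in vehicle and 2028, 2075 and 2631 in ADU-S100 tumors, a log2 difference of -0.71 (SE 0.42). Cd276, the checkpoint ligand B7-H3, had 934, 993 and 863 against 632, 635 and 795, with -0.44 (SE 0.42). Psmb7, a proteasome subunit, Map2k4, a kinase upstream of JNK, and Tgfbr1, a receptor for TGF-beta, had log2 differences of -0.42 (SE 0.51), -0.36 (SE 0.31) and -0.13 (SE 0.32). For Tgfbr1 the values were 935 to 978 against 840 to 903, so that complete separation here goes with a difference smaller than its standard error. Stromal genes were mixed, with 9 positive and 14 negative of 23 and a median of -0.07 (-0.49 on the same-median scale, where 4 separated as lower). Thy1, a surface protein of fibroblasts and T cells, had 650, 2257 and 1257 against 1165, 578 and 766, and Fap, a protease of activated fibroblasts, 141, 425 and 176 against 179, 92.3 and 121. Both overlapped, with vehicle tumor 1529 the highest, and separated as lower on the same-median scale. Of 14 endothelial genes 8 were positive, with a median of 0.01 and 0 separated, and 11 had their highest value in 1529. The median was 0.74 without 1529, -0.41 without 1506 and -0.40 without 1269. Pecam1, an adhesion molecule of endothelium, had 346, 2359 and 500 against 1985, 389 and 507, so that the spread within each group exceeded the difference of -0.02 (SE 1.35).

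**Figure D5:**
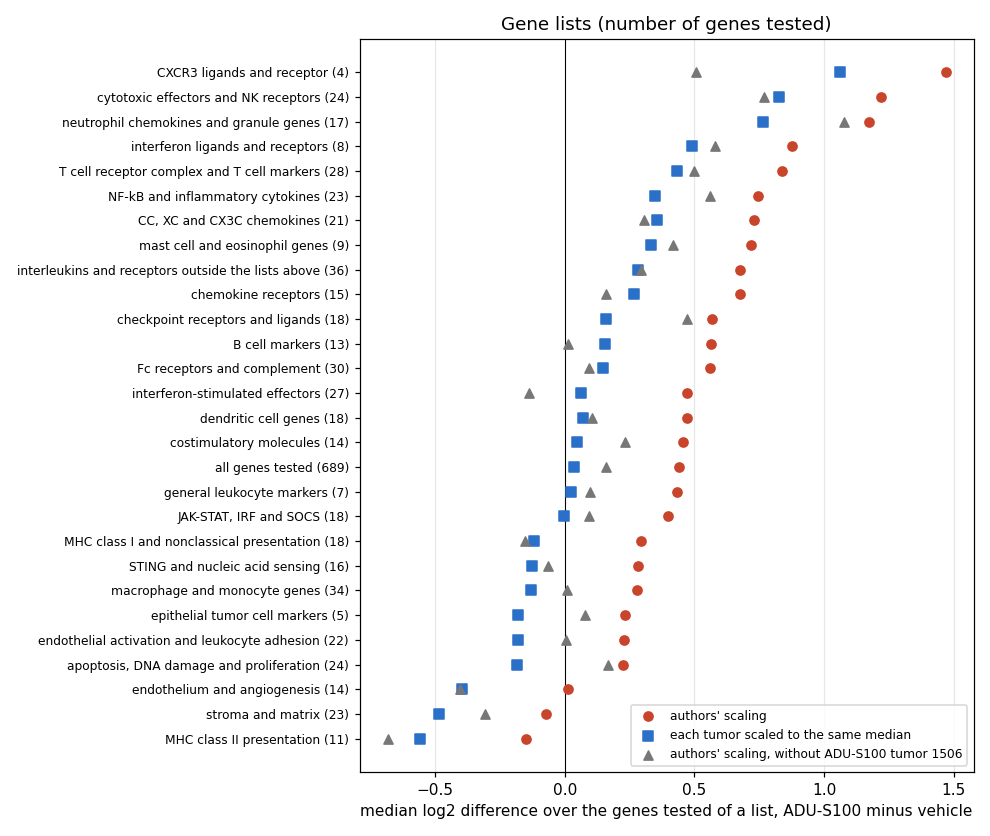
Median log2 difference (horizontal axis) over the genes tested of each list, with their number in brackets, under the authors' scaling (red circles), with each tumor scaled to the same median (blue squares) and without ADU-S100 tumor 1506 (grey triangles). The blue squares lie below the red circles by nearly the same amount for each list, from the CXCR3 ligands (1.47), cytotoxic (1.22) and neutrophil genes (1.17) at the top to the MHC class II genes (-0.15) at the bottom, while the grey triangles move by list.

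Genes of antigen-presenting cells were mixed. Of 18 dendritic cell genes, 14 had a positive difference and 3 separated as higher (16.7%, beside 13.9% of all genes and 24.2% of those with few counts), all 3 on few counts, with a median log2 difference of 0.47 (0.07 on the same-median scale). Without tumor 1506 the dendritic cell median was 0.105 with 11 of 18 positive, beside 0.16 for all genes. Xcr1, a chemokine receptor of cross-presenting dendritic cells, had 12.96, 17.8 and 10.4 in vehicle and 65.5, 29.5 and 15.7 in ADU-S100 tumors, and overlapped on 11 to 23 counts. Cd40, the receptor for help from T cells, had 26.6, 68.4 and 43.6 against 51.3, 39.3 and 18.6, a log2 difference of -0.35 (SE 0.46), and Itgax, the integrin CD11c, 83.9, 95.2 and 63.0 against 105, 104 and 72.8, with 0.22 (SE 0.37). Ccl17, a chemokine of mature dendritic cells, had 19.8, 141 and 54.0 against 31.3, 41.3 and 19.98, with -0.83 (SE 0.66) and -0.14 without 1529. In none of these 4 genes were the groups apart. The 34 macrophage and monocyte genes had a median of 0.28, with 25 positive and 3 separated as higher, and the 30 Fc receptor and complement genes 0.56, with 25 positive, 2 separated as higher and 1 as lower. Without 1506 these medians were 0.0062, with 17 of 34 positive, and 0.09, and the macrophage median was -0.13 on the same-median scale. Chil3, a chitinase-like protein of myeloid cells, had 10.2, 40.1 and 13.2 against 179, 78.6 and 15.7, with 1.73 (SE 0.85) and 0.96 without 1506, and overlapped. The summed markers of macrophages (Cd68 and Csf1r) were 962 to 2585 in vehicle and 1457 to 2734 in ADU-S100 tumors.

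Of 18 checkpoint receptors and ligands, 15 had a positive difference, 3 separated as higher (16.7%, beside 13.9% of all genes) and 1 as lower, with a median of 0.57 (0.16 on the same-median scale). Ctla4, the inhibitory receptor that competes with CD28, had 17.1, 34.2 and 15.2 in vehicle and 51.3, 45.2 and 40.0 in ADU-S100 tumors, a log2 difference of 1.09 (SE 0.72), on counts of 22 to 25 against 18 to 28. Cd274, which encodes the ligand PD-L1, had 287, 137 and 119 against 433, 393 and 194, with 0.94 (SE 0.57), and Lag3, an inhibitory receptor of T cells, 58.7, 93.7 and 35.3 against 194, 88.4 and 127, with 1.15 (SE 0.59). Ctla4 separated, while in Cd274 and Lag3 1 ADU-S100 tumor lay below the highest vehicle tumor. The 14 costimulatory molecules had a median of 0.46, with 12 positive and 3 separated as higher (21.4%, with 8 of the 14 on few counts). The 13 B cell markers (median 0.56, 10 positive) and 7 general leukocyte markers (0.43, 7 positive) held 0 separated genes, and without 1506 the medians were 0.01 with 7 positive and 0.10 with 4 positive. Ptprc, the leukocyte antigen CD45, had 152, 510 and 285 against 1003, 485 and 287, with 0.88 (SE 0.57) and 0.41 without 1506, so that only tumor 1506 lay above the vehicle tumors. The 9 mast cell and eosinophil genes had a median of 0.72, with 7 positive and 1 separated as higher, Il5ra, and 8 of them rest on few counts. The 5 epithelial genes had a median of 0.23 and 0 separated, the 24 genes of apoptosis, DNA damage and proliferation 0.23 and 3 separated as higher (12.5%), and the 36 interleukins and receptors of no other list 0.68 and 6 separated as higher (16.7%). Among the last, Il24 had 6.14, 19.3 and 59.6 against 62.7, 173 and 37.1, with 1.86 (SE 0.81) and 1.10 without 1269, and overlapped.

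Of the remaining separated genes with 20 counts or more, Snai1, a transcription factor of epithelial to mesenchymal transition, had 60.7, 339 and 213 in vehicle and 1051, 434 and 372 in ADU-S100 tumors, a log2 difference of 1.75 (SE 0.81) that was 1.04 without 1269, and separated on the same-median scale. Egr2, an early growth response factor, had 40.9, 92.2 and 63.0 against 142, 147 and 210, with 1.39 (SE 0.63) and tumor 1513 the highest. Ltk, a receptor tyrosine kinase, had 30.01, 37.2 and 24.9 against 91.1, 78.6 and 64.2, with 1.32 (SE 0.70), and Ly9, a receptor of lymphocytes, 18.4, 37.2 and 30.5 against 128, 39.3 and 42.8, with 1.10 (SE 0.58) and 0.56 without 1506. Cdkn1a, the cell cycle inhibitor p21, had 671, 727 and 586 against 1099, 1277 and 1266, with 0.88 (SE 0.42), and the groups overlapped on the same-median scale. Anp32b, a nuclear chaperone and the best counted of the separated genes, had 5336, 10779 and 11178 against 17811, 22152 and 12416, with 0.98 (SE 0.46) and 0.63 without 1269. C3ar1, the receptor for complement fragment C3a, had 403, 1139 and 885 against 6030, 2224 and 1044, with 1.70 (SE 0.64) and 1.04 without 1506, and overlapped. Epcam, an epithelial adhesion molecule, had a log2 difference of -0.31 (SE 0.51) with overlapping groups. Other well-counted genes that separated as higher include Abl1, Atf2, Atg12, Cklf, Dock9, Dusp6, Elk1, Hras, Ikbkg, Map3k1, Mapk8, Mif, Notch1, Pla2g6, Plaur, Sh2d1b1, Tfeb, Tirap, Ccl27a, Bcl2, Bcl2l1, Pvr, Tnfrsf18, Itgal, Il17b, Abcg1 and Cxcl5. Of all 49, only 7 also separated on the same-median scale, namely Il2rb, Hcst, Oasl1, Snai1, Tyk2, Ltk and Cklf.

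Separated genes with the fewest counts are given by their counts, since a difference of a few counts decides them. Il5ra, the receptor chain of eosinophils for interleukin-5, had 2, 3 and 11 counts in vehicle and 18, 9 and 19 in ADU-S100 tumors, and a log2 difference of 2.65 (SE 0.88). Cd160, a receptor of NK cells and cytotoxic T cells, had 11, 3 and 4 against 15, 6 and 16, with 2.08 (SE 0.67). C9, a component of the complement pore, had 6, 7 and 3 against 12, 15 and 10, with 2.17 (SE 0.71), and Il11, a cytokine of the interleukin-6 family, 9, 6 and 11 against 15, 13 and 13, with 1.74 (SE 0.70). The counts of Il5ra and Cd160 overlap, while those of C9 and Il11 do not. Il19, a cytokine of the interleukin-10 family, had 23, 13 and 8 against 24, 37 and 18, with 1.98 (SE 0.67). The other genes that separated as higher with fewer than 20 counts in a tumor were A2m, Gpr44, Ptgdr2, Ppbp, Serpinb2, Ccl1, Cd59b, Cd27, Cd40lg, Ctla4, Ccr7, Tnfsf14, Tnfsf8, Gzmk, Klra4, Klrb1c, Klrk1, Slamf7, Tbx21, Csf2, Lamp3, Il12rb2, Il22ra1, Il22ra2, Trem1, Ifna2 and Mpo. Gpr44 is an older symbol of Ptgdr2, a receptor for prostaglandin D2, and the panel lists both names. Their counts were 9, 17 and 13 against 16, 20 and 21 for Gpr44 and 12, 9 and 17 against 8, 13 and 13 for Ptgdr2. Of the 47 genes, 24 also separated on the same-median scale and 7 by counts. The 61 genes below the filter on low values, with at most 30 recovered counts in any of the 6 tumors, include Il2, Il4, Il17a, Cd79a, Cd8b1, Mx1 and 8 of the Klra receptors, and no difference was tested for them.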

How the data were processed

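RNA from 12 snap-frozen tumors was counted on the nCounter mouse PanCancer Immune panel. The deposited table holds 750 genes as signal values, which the authors made in nSolver by quality control, background correction, removal of tallies below the negative controls, and normalization to positive controls and to the geometric mean of housekeeping genes. Control probes and unscaled tallies were not analysed here. Each deposited value divided by its tumor's step gave a whole count within 0.01 for at least 99.87% of values per tumor, and these recovered counts are the authors' tallies up to a common factor. Values at the floor of 1 were entered as 0 counts, which concerned 3 values in vehicle tumor 1269 and 2 in 1536. The number of counts limits the precision of genes under 20 counts, and counting error is not part of the standard errors beyond the spread between tumors.

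Tumors were grouped by their titles. Genes that reached a value of 20 in 3 or more tumors, 689 in all, were fitted as log2(value + 1) in limma 3.58.1 (R 4.3.3) with 1 mean per group over all 12 tumors and Benjamini-Hochberg adjustment over the 689 genes. The pseudocount of 1 understates differences of low genes. Of the fitted tumors, 1 in the olaparib group was shallow, with 106206 counts. Differences between groups in the effect of ADU-S100 were tested as an interaction in the same model. Alternatives were a pseudocount of 10, other filters, scaling to the same median, quantile normalization, subtraction of the median of the 30 lowest genes, a fit on 6 tumors, an intensity trend, leaving out each tumor, an unpaired t-test as in the study's methods, and edgeR 4.0.16 on recovered counts. The limma fit was checked on simulated data in which 200 of the 689 genes were changed in ADU-S100 tumors. At an adjusted p below 0.05 it recovered 0% of genes changed by 1 log2 unit, 61.5% by 2 and 81.5% by 3. Real differences of about 1 log2 unit would thus mostly go uncalled in this design. Tables and figures were made in Python 3.11.15 with pandas 2.3.3 and matplotlib 3.10.9.

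Named genes are the largest differences among completely separated genes with 20 counts or more, up to 4 genes per list with the smallest p, the 10 separated genes with the fewest counts, genes that the study discusses, and the smallest p in each direction. Isg15, Ifit1, Ifit3, Rsad2, Nfkbia, Nfkb2, Ncr1, Ctla4, Pecam1, Il1rn, Gpr44 and Anp32b were added after their values were seen, as were the name lists of separated genes. The members and lists were chosen with earlier results of these data known. Promoter windows are those of RefSeq on GRCm38.p6, and 508 of the genes tested matched by symbol. Some genes that the rule allows are not reported here.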

Additional observations from a re-analysis of the deposited data

Results flagged for a closer look

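For 6 genes described above the 3 ADU-S100 tumors separated from the 3 vehicle tumors in one direction, and the 3 tumors given ADU-S100 with olaparib separated from the 3 given olaparib alone in the other. The difference between the effects was tested as an interaction in limma over 689 genes, of which 0 passed an adjusted p of 0.05 (smallest adjusted p 0.346) and 75 lay below an unadjusted p of 0.05, and 7 genes separated in opposite directions. Since the genes were picked by that pattern, their differences are a description and no separate evidence of it. In log2 units, the ADU-S100 effect under olaparib minus that in its absence was -3.94 (SE 0.998) for C9, 2.49 (SE 0.55) for H2-DMb2, -2.17 (SE 0.65) for Lif and -2.98 (SE 0.94) for Gpr44, each with a limma adjusted p of 0.346. It was -1.26 (SE 0.67, limma adjusted p 0.439) for Tbk1 and 0.62 (SE 0.44, limma adjusted p 0.529) for Map2k4.

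Normalized counts of H2-DMb2 were 54.6, 83.8 and 78.4 with olaparib and 190, 261 and 203 with the combination, those of Lif 908, 597 and 509 against 441, 204 and 414, and those of Tbk1 483, 1593 and 456 against 454, 401 and 427. C9 had 29.2, 62.9 and 7.66 against 5.67, 6.60 and 7.38, Gpr44 17.5, 73.4 and 11.2 against 10.5, 9.89 and 7.38, and Map2k4 920, 796 and 801 against 1000, 1063 and 949. The second values listed for olaparib belong to the tumor with 106206 counts in all, in which 1 count was worth 10.5, and the part of that depth in these differences was not tested.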

How the results depend on the processing

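No gene passed the adjusted threshold under any of the 18 alternatives run, with 0.472 as the smallest adjusted p. The number of genes higher at an unadjusted p below 0.05 was 17 with 20 counts required in each tumor, 58 with the 6 tumors alone, and 12 to 60 with 1 tumor left out. The number lower was 0 with 20 counts required, 6 with the same median, 13 with quantile normalization, 3 with background subtracted, 0 with the 6 tumors alone, 4 with the methods' t-test (46 higher), 0 in edgeR with the authors' factors, 10 in edgeR with TMM, and 0 to 1 with 1 tumor left out. Genes separated as higher numbered 63 with the filter at 50, 49 with 20 counts required, 63 with the same median, 39 with quantile normalization and 101 to 252 with 1 tumor left out. Genes separated as lower numbered 23 with the same median, 39 with quantile normalization, 11 with background subtracted and 7 to 22 with 1 tumor left out. The median over all genes was -0.048 with quantile normalization, which sets it near 0 by construction. Of the lists recomputed under every alternative, medians changed sign for STING and nucleic acid sensing (-0.13 with the same median, -0.17 with quantile normalization, -0.066 to 0.42 with 1 tumor left out) and, with 1 tumor left out, for interferon-stimulated effectors (-0.14 to 0.80), MHC class II (-0.68 to 0.088) and stroma (-0.35 to 0.16). Of the other lists, the same median turned adhesion (-0.18), macrophage (-0.13), epithelial (-0.18), apoptosis (-0.19), MHC class I (-0.12), endothelial (-0.40) and JAK-STAT genes (-0.0015), and a left-out tumor turned MHC class I (-0.15 without 1506), endothelial (-0.41 without 1506, -0.40 without 1269) and chemokine receptor genes (-0.013 without 1269). Of 86 genes with values in the text, 12 changed sign under at least 1 of the alternatives that could be run for them, of which the filters, the fit on 6 tumors and the intensity trend leave a gene's difference as it is. With the same median the difference was -0.074 for Isg15, -0.12 for Ifit3 and -0.19 for Itgax, and with quantile normalization it was -0.49 for Cd3e (-0.48 with background subtracted), -0.25 for Cd8a, -0.17 for Cd4, -0.35 for Foxp3 and -0.32 for Itgax. With 1 tumor left out it ran from -0.24 to 0.068 for Tmem173, -0.16 to 1.56 for Irf7, -0.29 to 0.87 for Isg15, -1.34 to 0.54 for Ifit1, -0.86 to 1.10 for Ifit3, -0.69 to 0.059 for Cd40 and -0.74 to 0.81 for Pecam1. The filters test fewer genes and leaving a tumor out leaves fewer values to separate, and the cause of the other changes was not tested. No paired analysis was possible because the groups share no tumor numbers. The numbers of 5 of the 6 tumors begin alike and that of vehicle tumor 1269 begins otherwise, for which the labels give no reason. Without 1269, 12 genes were higher and 1 lower at an unadjusted p below 0.05, and the median over all genes was 0.34.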
